A study of Homo sapiens with 6 samples.

Results

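Vemurafenib, a RAF kinase inhibitor labelled VEM, was added to BOR in SKM-1 cells, and the combination is set here against BOR alone. SKM-1 is an established human cell line of acute myeloid leukaemia, taken from disease that followed myelodysplastic syndrome. The comparison used 3 of the 6 libraries of the series, the single VEM+BOR library and both BOR libraries (BOR 1 and BOR 2). BOR is a further agent whose full name the labels leave out, and no dose or exposure time was found in them. The other 3 libraries were 2 of untreated SKM-1 cells and 1 of cells given VEM without BOR. Poly-A selected RNA was sequenced to between 17252404 and 18507606 reads assigned to genes per library. Whether the 2 libraries of a group are separate cultures is not stated, so p-values measure a spread that may be technical. Genes present in all 3 deposited tables were joined, 23519 in all, and 15423 of them had a mean normalised read count of at least 10. The genes described are those with VEM+BOR on the same side of both BOR libraries, 7179 of the 15423.

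RAF kinases pass signals from RAS to MEK and ERK, and in myeloid cells this cascade takes part in proliferation and maturation. A maturing myeloid cell first makes the proteases and peroxidase of the primary (azurophil) granules, then switches these genes off and makes surface receptors, integrins and the phagocyte oxidase. The study's title names senescence and HIPPO signalling as its question. In the HIPPO pathway a kinase cassette restrains YAP1, a coactivator of TEAD transcription factors.

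The BOR libraries differed widely. Across genes, BOR 2 correlated with the other 5 libraries at r between 0.858 and 0.878, whereas BOR 1 and VEM+BOR correlated at 0.984. These correlations are across genes, which are not independent replicates. The SD of the log2 difference was 0.47 between VEM+BOR and BOR 1 and 1.46 between VEM+BOR and BOR 2. The biological coefficient of variation was 0.653 for the BOR pair and 0.277 for the untreated pair. The share of reads from mitochondrially encoded genes was 3.14% in BOR 2, with 4.23% to 5.40% elsewhere. The part of these differences in the results was not tested. The 7 myeloid markers checked were detected in every library, in keeping with the labelled cell type. Their summed level was 1636 CPM (reads scaled to the library total) in VEM+BOR, against 3357 in BOR 1 and 3556 in BOR 2, and 1740 in VEM against 3243 and 3569 in untreated cells. These markers include MPO and ELANE, described below among the granule genes and lower in VEM+BOR than in either BOR library. ELANE alone was 426 CPM in VEM+BOR and 1381 CPM in BOR 1, so the sum does not describe the markers as a set. Of the 7, 2 lay above both BOR libraries, 3 below both and 2 in between, against 22.3% above and 24.3% below of all genes. Their median log2 difference was -0.01 from BOR 1 and -0.04 from BOR 2. Lymphoid markers summed to between 14.0 and 22.3 CPM, with 3 of 7 in all tables. Erythroid and megakaryocytic markers summed to between 1.84 and 9.33 CPM, and epithelial and stromal markers to between 1.78 and 9.61 CPM. In bulk samples, fewer cells of a type and less RNA per cell cannot be told apart.

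No gene passed the test. In limma with a mean-variance trend, 0 of 15423 genes had an adjusted p under 0.05 for a higher or a lower value in VEM+BOR (0.0% each way), and 43 had an unadjusted p under 0.05. The edgeR quasi-likelihood test on recovered reads also called 0, with 51 at an unadjusted p under 0.05, and DESeq2 called 3 lower. With 1 library against 2, the smallest two-sided p of an exact permutation test, taken as 2 times the one-sided p, is 0.667. The results below are therefore positions and sizes in these 3 libraries. VEM+BOR lay above both BOR libraries for 3438 genes (22.3%) and below both for 3741 (24.3%), with 8244 in between. Scaling by library totals moved this split to 4475 above and 2587 below, shifting the median fitted change of all genes from -0.01 to 0.26, and TMM scaling moved it to 4129 and 3018. A gap of at least 1 on the log2(value + 1) scale to the nearer BOR library, called the nearer gap here, was found upward for 98 genes (0.635%) and downward for 180 (1.17%). That scale understates changes of low genes. Without BOR 1 the same fit called 2456 genes higher and 1135 lower, so the count then describes the distance from BOR 2. Without BOR 2 it called 3, the chemokine CXCL8 and the mTORC1 inhibitor DDIT4 higher and the long non-coding RNA UCA1 lower.

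**Figure D1:**
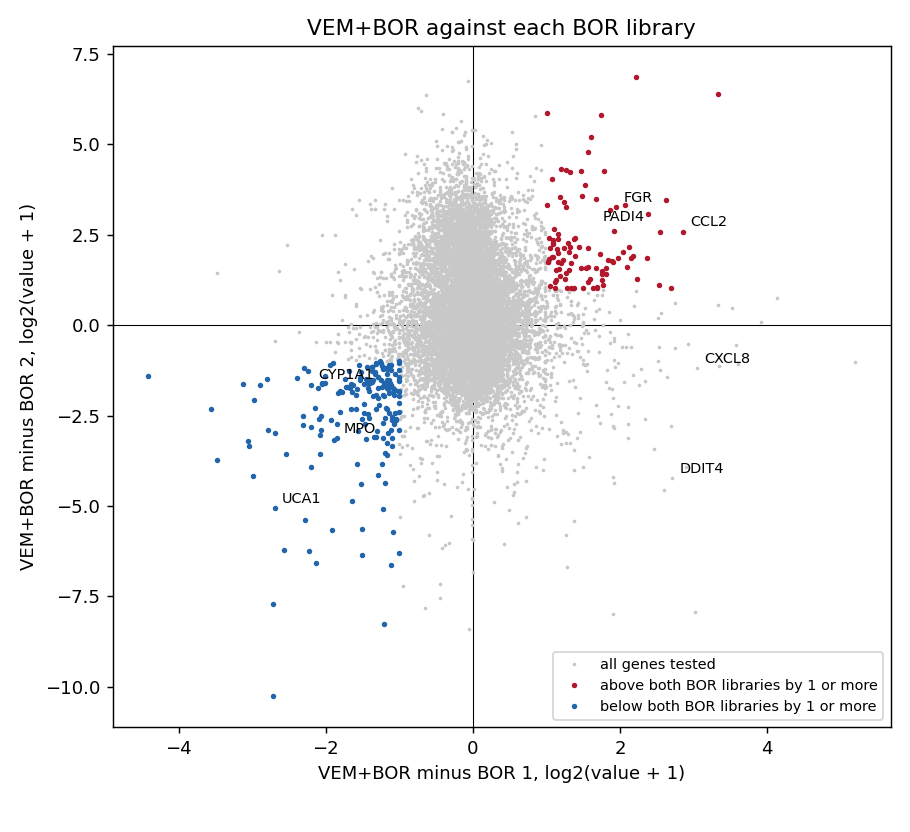
Each point is 1 gene, with VEM+BOR minus BOR 1 on the x axis and VEM+BOR minus BOR 2 on the y axis, both as log2(value + 1). The cloud is narrow across and tall, since the SD was 0.47 against BOR 1 and 1.46 against BOR 2. Red points are the 98 genes above both BOR libraries by 1 or more and blue points the 180 below both.

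Promoter windows of 4 genes that the results turn on are shown from 250 bases before to 50 after the annotated start, taken from RefSeq on GRCh38.p14. FGR and CYBB are the 2 highest by nearer gap among the named genes above both BOR libraries whose window holds GAGGAA. These letters contain GGAA, the core bound by ETS factors such as the myeloid regulator PU.1. PRTN3 holds GAGGAA too and lay below both BOR libraries, so the letters stand at genes placed on either side. Capitals mark GAGGAA, or TTCCTC where it lies on the other strand. The windows are chr1:27635136-27635435 (minus strand) for FGR, chrX:37779809-37780108 (plus strand) for CYBB and chr19:840749-841048 (plus strand) for PRTN3.
FGR: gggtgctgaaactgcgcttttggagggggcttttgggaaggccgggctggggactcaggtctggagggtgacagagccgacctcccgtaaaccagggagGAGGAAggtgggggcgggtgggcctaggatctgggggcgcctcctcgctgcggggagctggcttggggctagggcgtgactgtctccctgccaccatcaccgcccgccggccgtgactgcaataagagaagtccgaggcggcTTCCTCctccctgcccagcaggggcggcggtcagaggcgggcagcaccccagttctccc
CYBB: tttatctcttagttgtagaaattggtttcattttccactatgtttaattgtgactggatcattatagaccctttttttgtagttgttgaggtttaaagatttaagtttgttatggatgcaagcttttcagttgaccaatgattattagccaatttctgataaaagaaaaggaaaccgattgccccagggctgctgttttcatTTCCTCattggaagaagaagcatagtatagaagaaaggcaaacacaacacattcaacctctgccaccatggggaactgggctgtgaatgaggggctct
PRTN3: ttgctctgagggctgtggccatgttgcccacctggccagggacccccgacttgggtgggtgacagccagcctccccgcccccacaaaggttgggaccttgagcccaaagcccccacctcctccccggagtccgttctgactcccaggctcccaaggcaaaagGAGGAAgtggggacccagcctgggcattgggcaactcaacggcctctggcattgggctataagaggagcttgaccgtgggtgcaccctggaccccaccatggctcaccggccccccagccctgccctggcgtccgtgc
HMGCS1, of the mevalonate pathway, has the largest gap downward among sterol genes whose window holds CCAATC, the letters bound by NF-Y. Capitals mark CCAATC, or GATTGG on the other strand, in chr5:43313363-43313662 (minus strand).
HMGCS1: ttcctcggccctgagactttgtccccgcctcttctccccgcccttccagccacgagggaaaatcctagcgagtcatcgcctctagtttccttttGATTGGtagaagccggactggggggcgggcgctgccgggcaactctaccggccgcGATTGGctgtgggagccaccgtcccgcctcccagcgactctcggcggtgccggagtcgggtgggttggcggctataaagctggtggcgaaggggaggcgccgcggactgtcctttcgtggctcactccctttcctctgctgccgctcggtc

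These 2 motifs were chosen for display after the shares of 15 letter patterns had been seen, and no pattern was tested. Counting both strands, GAGGAA was in 27.6% of 27305 promoter windows, and in 16 of the 26 windows matched for the monocyte and granulocyte maturation list. It was in 5 of 11 windows of the named genes above both BOR libraries, 4 of 9 of those below, and 2 of 6 primary granule windows. CCAATC was in 15.7% of all windows, in 13 of 23 for the sterol list and in 10 of 27 for the integrated stress response list. The shorter CCAAT, which CCAATC contains, was in 35.7% of all windows, 16 of 23 sterol windows and 15 of 27 stress response windows. GAGGAAGT, which contains GAGGAA, was in 2.54% of all windows and 3 of the 26. The sterol regulatory letters TCACCCCAC, with the overlapping TCACCCCA and CACCCCAC, were in 1, 2 and 1 of 23 sterol windows, against 0.425%, 1.47% and 2.72% of all. TGATGNAA, of the ATF4 and CEBP composite site, was in 6 of 27 stress response windows against 3.67% of all, and TTGCATCA in 2 of 27 against 0.923%. The remaining patterns were TTGCGTG of the aryl hydrocarbon receptor, then TGANTCA of AP-1, an exact and a loose form of the NF-kB site, an interferon response pattern, and TTGCNNAA of CEBP factors. In that order they were in 0, 6, 0, 5, 3 and 5 of the 26 maturation windows, against 1.15%, 7.76%, 0.194%, 17.1%, 3.65% and 10.6% of all. For the 6 primary granule windows the counts were 0, 0, 0, 3, 0 and 4. A match is a description of letters and not a binding site.

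Genes of phagocyte maturation were among those farthest above both BOR libraries. Of the 33 listed genes of monocyte and granulocyte maturation 27 passed the filter on low values. Of these, 13 lay above both BOR libraries, 4 below both, and 8 above both by 1 or more. The shares of all genes were 22.3%, 24.3% and 0.635%. The median difference was 0.76 from BOR 1 and 0.33 from BOR 2, against -0.01 and -0.03 over all genes tested. The 13 and 4 became 15 and 2 when scaled by library totals.

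PADI4, the granulocyte enzyme that turns histone arginine into citrulline, had a value of 3374 in VEM+BOR, 576 in BOR 1 and 565 in BOR 2. It was 1421 in VEM and 250.3 and 88.3 in untreated cells. The BOR libraries lay close together here and VEM+BOR was the highest of the 6. The fitted log2 change was 2.56 (SE 0.76, limma adjusted p = 0.999). FGR, a SRC-family kinase of myeloid cells, was 1622 in VEM+BOR, 419 in BOR 1, 168 in BOR 2, 631 in VEM, and 233 and 111 in untreated cells. CYBB, the catalytic subunit of the phagocyte NADPH oxidase, was 297 in VEM+BOR against 92.6 and 25.7 in BOR, 79.3 in VEM, and 45.3 and 36.3 in untreated cells. For both genes VEM+BOR stood above every other library. CYBB passed the minimum of 5 CPM narrowly, with a mean of 5.87 CPM that includes its high VEM+BOR value.

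Further members above both by 1 or more, named after their values were seen, were the scavenger receptor CD36, the integrin chains ITGAX and ITGAM, and NLRP12, with nearer gaps of 1.60, 1.12, 1.11 and 1.10. The member farthest below was CSF1R, the receptor for macrophage colony-stimulating factor, at -1.10.

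FGR lies on chromosome 1 (27612064 to 27635277), as does PADI4 (17308195 to 17364004), and CYBB lies on chromosome X (37780011 to 37813461). CCL2 is on chromosome 17 (34255218 to 34257203). Gene coordinates equal those of GENCODE 29 on GRCh38. Each value sums reads over the gene, so exons are not told apart.

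Other genes above both BOR libraries carried signalling or surface roles. CCL2, which draws monocytes, had a value of 1388 in VEM+BOR against 191 and 231 in BOR, 451 in VEM, and 71.9 and 265 in untreated cells. Its nearer gap of 2.58 was the largest among protein-coding genes with a mean of at least 5 CPM. TFAP2A, an AP-2 transcription factor, was 266 in VEM+BOR against 71.3 and 77.1 in BOR, and 161 in VEM against 47.9 and 52.95. Both BOR libraries and both untreated libraries of TFAP2A lay below the libraries with VEM.

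CD55, which shields cells from complement, was 3193 in VEM+BOR against 947 and 1198 in BOR, and 2024 in VEM against 620.5 and 682. ANXA1, a phospholipid-binding protein of phagocytes, was 2564 against 1046 and 533. The complement receptor gene CR1 was 1150.5 against 413 and 385, though reads shared with its close copies may be split uncertainly. The remaining genes of the upper 12 were SP140, CCPG1, LRRK2 and CACNA2D1, with nearer gaps between 1.26 and 1.53. For these 4, BOR 2 was the lowest of the 6 libraries, and since SP140, CCPG1, LRRK2 and TFAP2A overlap genes on the other strand their reads are uncertain.

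**Figure D2:**
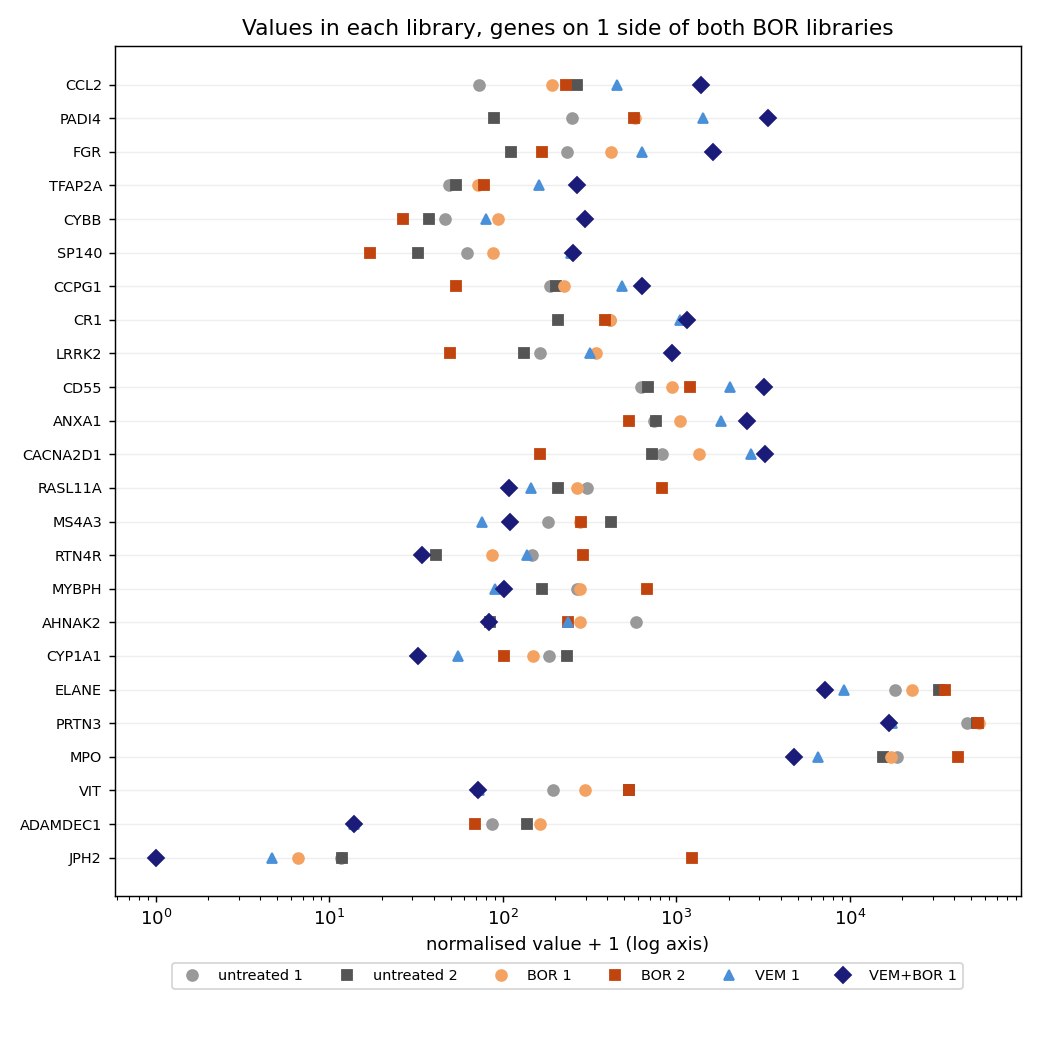
Normalised value + 1 on a log axis for the protein-coding genes of 5 CPM or more with the 12 highest and 12 lowest nearer gaps, 1 marker per library. That mean takes in VEM+BOR and both BOR libraries, so a gene can reach it through 1 high library. CYBB, TFAP2A and SP140 of the upper 12 were near the minimum, at 5.87, 5.87 and 5.35 CPM. So were ADAMDEC1 and RTN4R of the lower 12, at 5.33 and 6.09 CPM. The VEM+BOR diamond lies beyond both BOR markers in each row, by construction, and the VEM triangle lies on the same side of the untreated markers in the upper 12 rows.

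Primary granule genes were among those farthest below both BOR libraries. Of 11 measured genes (13 listed) 6 lay below both BOR libraries, 3 of them by 1 or more, and 3 lay above both. The shares of all genes were 24.3%, 1.17% and 22.3%. MPO, the myeloperoxidase, had a value of 4787 in VEM+BOR, 17239 in BOR 1, 41948 in BOR 2, 6551 in VEM, and 18695 and 15445 in untreated cells. VEM+BOR was the lowest of the 6 and the fitted log2 change was -2.49 (SE 0.71, limma adjusted p = 0.999). PRTN3, the proteinase of the same granules, was 16767 in VEM+BOR against 55636 and 54957 in BOR, and 17519.7 in VEM against 47180.3 and 53629. The BOR libraries of PRTN3 were nearly level and lay with the untreated pair, well above both libraries with VEM.

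ELANE, the neutrophil elastase, was 7173 in VEM+BOR against 22626 and 35449.9 in BOR, and 9202 in VEM against 18259 and 32391. LYZ, the lysozyme, had a nearer gap of -0.88. The 3 granule genes above both, named after their values were seen, were SRGN, BPI and RNASE3, with nearer gaps of 0.45, 0.26 and 0.20. The counts of 3 above and 6 below were the same when scaled by library totals. MPO lies on chromosome 17 (58269856 to 58280935), and PRTN3 (840960 to 848175) and ELANE (851014 to 856247) are neighbours on chromosome 19.

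Aryl hydrocarbon receptor genes, which respond to ligands such as dioxins, held 9 measured members. Of these 5 were below both BOR libraries (4 with TMM scaling, 3 when scaled by library totals) and 1 above both, against 24.3% and 22.3% of all genes. CYP1A1, the cytochrome the receptor induces, was 31.2 in VEM+BOR, 147 in BOR 1, 100.04 in BOR 2, 54.4 in VEM, and 183 and 233 in untreated cells. The 2 libraries with VEM were the lowest. AHRR, the receptor's repressor, was 361 against 722 and 995, CYP1B1 had a nearer gap of -0.57, while the receptor gene AHR was above both by 0.22. The median fitted change of the list was -0.13 and turned to 0.14 when scaled by library totals.

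UCA1, a long non-coding RNA on chromosome 19 (15828206 to 15836326), was 39.5 in VEM+BOR, 260.1 in BOR 1, 1355 in BOR 2, 142 in VEM, and 1361 and 817 in untreated cells. BOR 1 lay far below BOR 2, and VEM+BOR lay below both. DESeq2 on recovered reads called UCA1 (adjusted p = 0.0455) along with LINC01671 (adjusted p = 0.0455) and the glycolysis regulator PFKFB4 (adjusted p = 0.0177), all lower. PFKFB4 was 127 in VEM+BOR, 199 in BOR 1 and 28991 in BOR 2, so that call rests on BOR 2.

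ADAMDEC1, a secreted metalloprotease, was 12.8 in VEM+BOR against 163 and 67.6 in BOR, and 12.9 in VEM against 85.2 and 136. MS4A3, a marker of granulocyte and monocyte progenitors, was 109 against 276 and 281 in BOR. VIT, MYBPH, RASL11A, RTN4R and AHNAK2 had nearer gaps between -2.06 and -1.30. JPH2, the lowest by this measure, had 0 reads in VEM+BOR, 6 in BOR 1 and 906 in BOR 2, so its place rests on few reads and no fold is given. It reached the minimum mean through BOR 2.

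Next to the threshold, IFI44L was just inside upward and RUNX2 just outside, with nearer gaps of 1.01 and 0.99. ABLIM3 was just inside downward, at 4.59 in VEM+BOR against 10.2 and 12.2 in BOR. AHRR was just outside, at 361 against 722 and 995.

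VEM without BOR was set beside VEM with BOR. The VEM and untreated libraries took no part in the nearer gap, and this pair of comparisons shares no library. The untreated libraries did enter the minimum means that genes had to reach, and genes absent from the VEM table were left out. Over all 15423 genes, VEM lay above both untreated libraries for 30.4% and below both for 27.7%. Among the 3438 genes above both BOR libraries the shares were 48.4% and 16.7%, and among the 3741 below both they were 19.5% and 36.7%. Of the 98 genes above by 1 or more, 67 were also above both untreated libraries in VEM and 11 were below both. Of the 180 below by 1 or more, 85 were below both untreated libraries in VEM and 25 were above both.

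With a mean of at least 5 CPM, 27 genes were above both BOR libraries by 1 or more, and in 26 of them VEM lay above both untreated libraries. The exception, named after its values were seen, was the splicing factor gene U2AF1, at 411 in VEM+BOR, 189 and 200.1 in BOR, 122 in VEM, and 159 and 206 in untreated cells. Reads of U2AF1 may be split with a near-identical copy. That mean includes VEM+BOR. With the minimum taken over the BOR and untreated libraries alone, a check added after seeing the data, 21 genes remained above by 1 or more, and VEM lay above both untreated libraries for 20. Of the 27 genes below by 1 or more, VEM lay below both untreated libraries for 16 and above both for 0. Against untreated 1 alone VEM was lower for 27 of the 27, and against untreated 2 alone for 16. With the minimum taken without VEM+BOR there were 30 such genes, 19 of them below both.

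Across all 15423 genes, the difference of VEM from untreated correlated with that of VEM+BOR from BOR 1 at r = 0.37 and from BOR 2 at r = 0.0006. Across the 11267 genes with a mean of at least 5 CPM the values were 0.55 and -0.05. The points share the VEM+BOR library between these correlations, and genes are not independent. The difference between the effect of VEM with BOR and without it was tested in all 6 libraries, and limma called 0 of 15462 genes, with 4 at an unadjusted p under 0.05. Without BOR 1 that fit called 2008 genes.

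**Figure D3:**
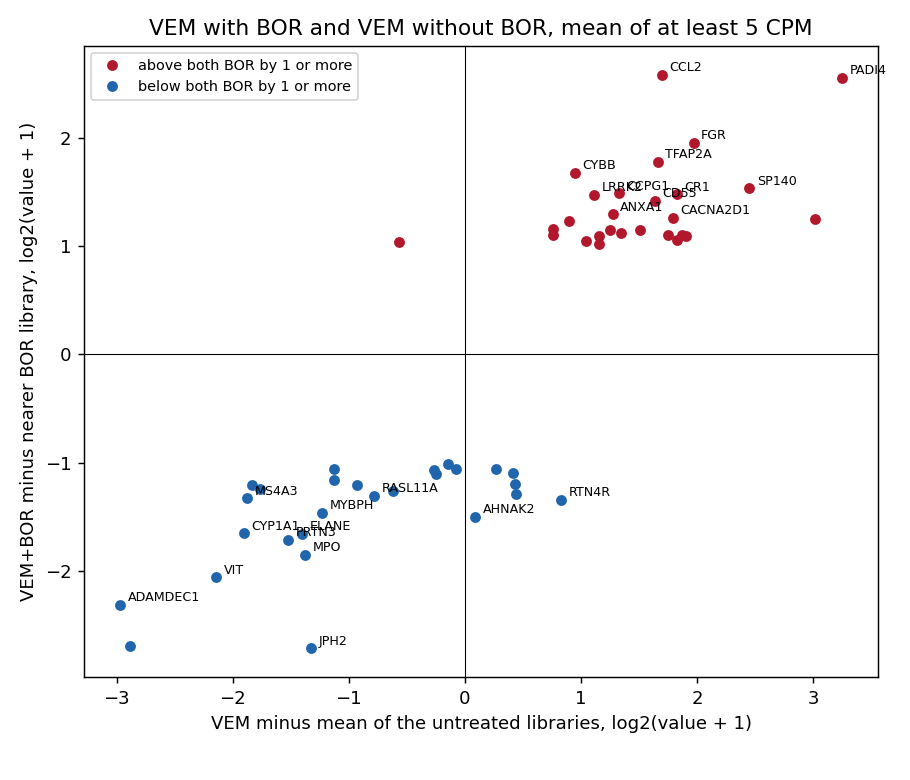
The x axis is VEM minus the mean of the untreated libraries and the y axis VEM+BOR minus the nearer BOR library, both as log2(value + 1), for genes with a nearer gap of 1 or more whose mean reached 5 CPM. Of the 27 red genes 26 lie to the right of zero, and the blue genes lie on both sides of it.

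Sterol synthesis genes make cholesterol from acetyl-CoA under the transcription factor SREBF2. Listed together with fatty acid synthesis genes, they mostly took the same side. Of 29 measured (30 listed), 26 lay below both BOR libraries and 0 above both, against 24.3% and 22.3% of all genes. The gap was small from BOR 1, with a median difference of -0.27, and larger from BOR 2, with a median of -1.42. Scaled by library totals the counts were 23 below and 0 above. In VEM without BOR, 21 of the 29 lay above both untreated libraries and 2 below both, which is the other side. For that comparison the shares of all genes were 30.4% and 27.7%.

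HMGCS1, which makes HMG-CoA, was 840.4 in VEM+BOR, 1755 in BOR 1, 2126 in BOR 2, 1217 in VEM, and 1261 and 812 in untreated cells. Both BOR libraries were above the other 4, and VEM+BOR lay inside the untreated range. LSS, the lanosterol synthase, was 1883 against 2883 and 3987 in BOR, and IDI1, an isomerase of the pathway, was 1125 against 1581 and 2651. The desaturase gene FADS2 was 3845 against 5413 and 21319. HMGCS1 was the member below both by 1 or more. No member passed the test of the difference between VEM with and without BOR.

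Integrated stress response genes, which ATF4 switches on when amino acids run short or proteins misfold, mostly lay between the BOR libraries. Of 33 measured, 27 were in between, 4 above both and 2 below both (6 and 0 when scaled by library totals). Over all 15423 genes, 8244 were in between. The median difference was 0.95 from BOR 1 and -1.07 from BOR 2. The median fitted change of -0.14 turned to 0.13 when scaled by library totals. In VEM without BOR, 29 of the 33 lay above both untreated libraries, against 30.4% of all genes.

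SLC7A11, the cystine transporter, was the member above both by 1 or more, at 1388 in VEM+BOR against 431 and 666 in BOR, and 1336 in VEM against 278 and 509. ALDH1L2, a mitochondrial folate enzyme, was 901 against 486 and 306. DDIT4 showed the spread of the BOR pair, at 1238 in VEM+BOR, 188 in BOR 1 and 23294 in BOR 2. CHAC1, which degrades glutathione, was 620.2 against 143 and 3007, and the inhibin subunit gene INHBE was 327 against 25.9 and 687. All 3 lay between the BOR libraries.

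**Figure D4:**
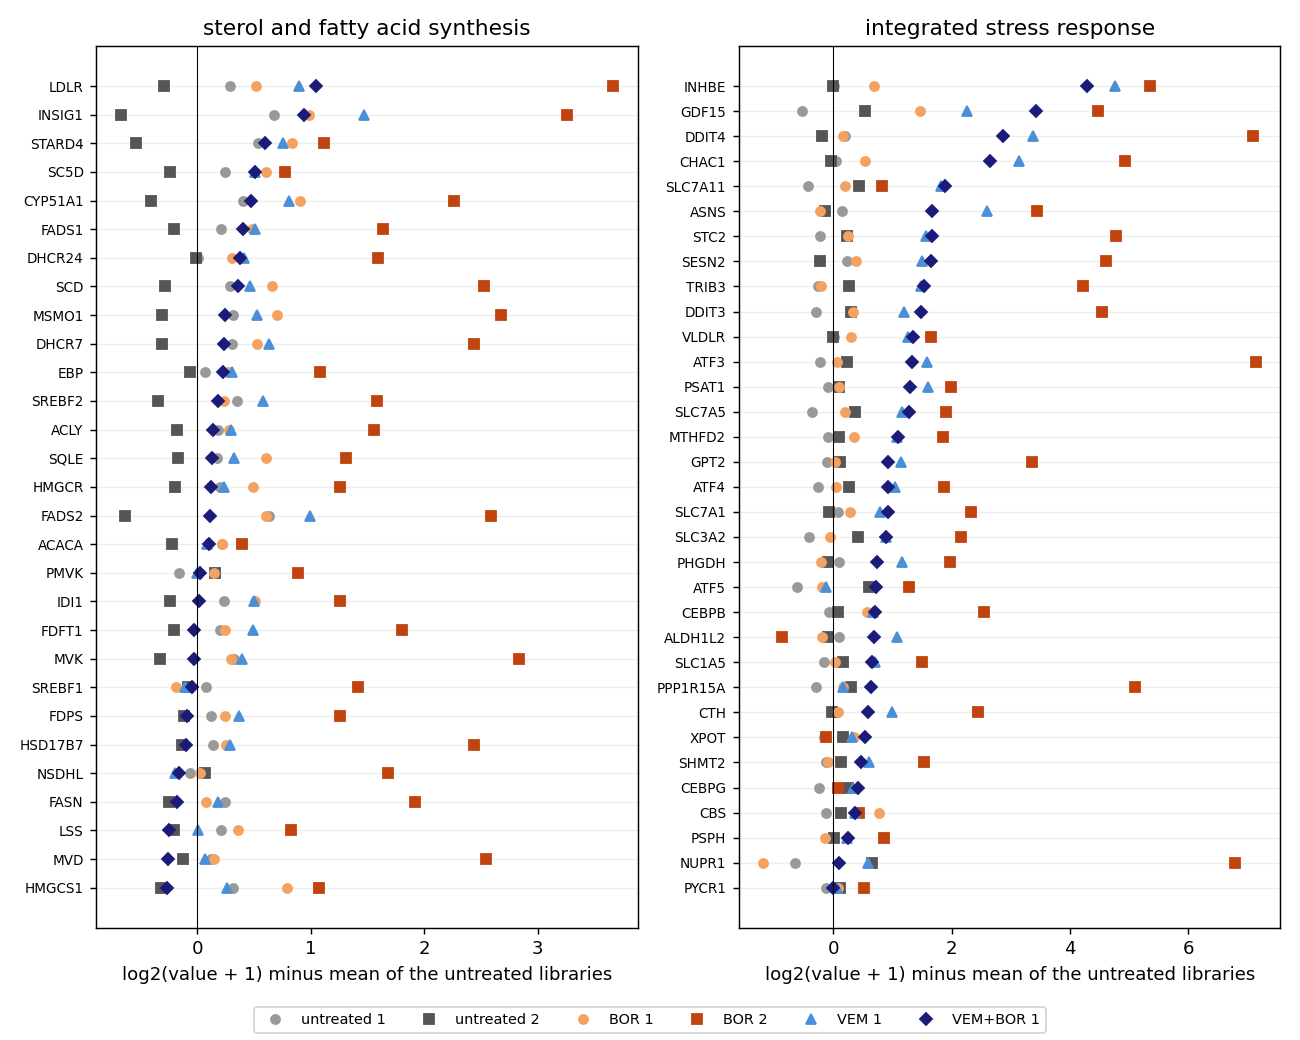
Each row is a gene, and markers give log2(value + 1) in each library minus the mean of the untreated libraries. In the left panel VEM+BOR diamonds lie left of both BOR markers for 26 of 29 sterol and fatty acid genes. In the right panel they lie between the BOR markers for 27 of 33 stress response genes.

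Genes of the endoplasmic reticulum unfolded protein response, chaperones and their regulators, lay below both BOR libraries for 13 of 25 and above both for 0. Over all genes the shares were 24.3% and 22.3%. HSPA5, the main chaperone of the compartment, was 30434 in VEM+BOR against 38568 and 112674 in BOR, and 20209.5 in VEM against 24133 and 34203. The median difference was -0.07 from BOR 1 and -1.25 from BOR 2. Cytosolic ribosomal protein genes were below both for 30 of 76 and above both for 0. The lower count was 19 with TMM scaling, near the 24.3% of all genes, and 40 when scaled by library totals. The median difference was 0.03 from BOR 1 and -1.41 from BOR 2. In these lists and in glycolysis and hypoxia (6 of 24 below both, near the share of all genes, and 0 above) the larger difference was from BOR 2.

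The chemokine CXCL8, which draws neutrophils, was 19942 in VEM+BOR, 2414 in BOR 1, 45458 in BOR 2 and 7762 in VEM. CCL5, another chemokine, was 6108 against 1333 and 4246. Of 11 measured chemokine and receptor genes 3 lay above both and 2 below both (4 and 0 when scaled by library totals). NF-kB targets counted 3 above and 2 below of 23 (6 and 2 when scaled by library totals). Senescence-associated secretory genes counted 4 above and 6 below of 25, a split that turned to 6 and 5 when scaled by library totals. Set beside these lists, 22.3% of all genes lay above both and 24.3% below both.

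HIPPO core genes, the question of the study's title, counted 14 above both BOR libraries and 6 below both of 35 measured (37 listed), and 16 and 4 when scaled by library totals. The median difference was 0.05 from BOR 1 and 0.35 from BOR 2, and 0 members had a nearer gap of 1 or more. YAP1 was 214 in VEM+BOR, 131 in BOR 1, 50.02 in BOR 2, 209 in VEM, and 203 and 91.2 in untreated cells. VEM+BOR lay close to VEM and to untreated 1. RASSF2, a partner of the HIPPO kinases, was 5804 against 4587 and 4550.4, and MAP4K1, a kinase, was 34.9 against 44.4 and 107. Targets of YAP1 with TEAD factors counted 2 above and 3 below of 16, which turned to 4 and 2 when scaled by library totals. The same shares of all genes stand beside these counts.

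Of the RAF kinases, BRAF was 345 in VEM+BOR against 379.6 and 338 in BOR. ARAF was 2969 against 2840.3 and 7066. Both lay between the BOR libraries. Output and feedback genes of ERK counted 2 above and 2 below of 17 (4 and 2 when scaled by library totals). The shares of all genes were 22.3% and 24.3%. EGR1, an immediate early transcription factor, was 685 in VEM+BOR, 112 in BOR 1, 16086 in BOR 2 and 1219 in VEM.

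Cell cycle genes gave mixed positions. Genes of G2/M and mitosis counted 8 above and 1 below of 30, the upper count near the 22.3% of all genes. The medians were -0.10 from BOR 1 and 1.53 from BOR 2, and 19 of the 30 lay below BOR 1. UBE2C, the 1 below both, had the largest gap of the list, at 17.4 against 37.0 and 111. CDK1, the mitotic kinase, was 5201 against 3685 and 745. MKI67, a marker of cycling cells, was 3587 in VEM+BOR, 4150.3 in BOR 1, 729 in BOR 2, 1978 in VEM, and 7068 and 5410.2 in untreated cells. Genes of G1/S and DNA replication counted 3 above and 11 below of 29, and also 3 and 11 when scaled by library totals. With TMM scaling they counted 4 and 6, which brings the lower count near the 24.3% of all genes. The inhibitor CDKN1A was 1204 against 651 and 9473, and CDKN2A was 8728 against 5601 and 13519, both between the BOR libraries. Of the stem and progenitor genes 5 of 15 lay above both and 2 below both, against 22.3% and 24.3% of all genes. The transcription factor gene GATA2 was 5672 against 2997 and 2535.

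**Figure D5:**
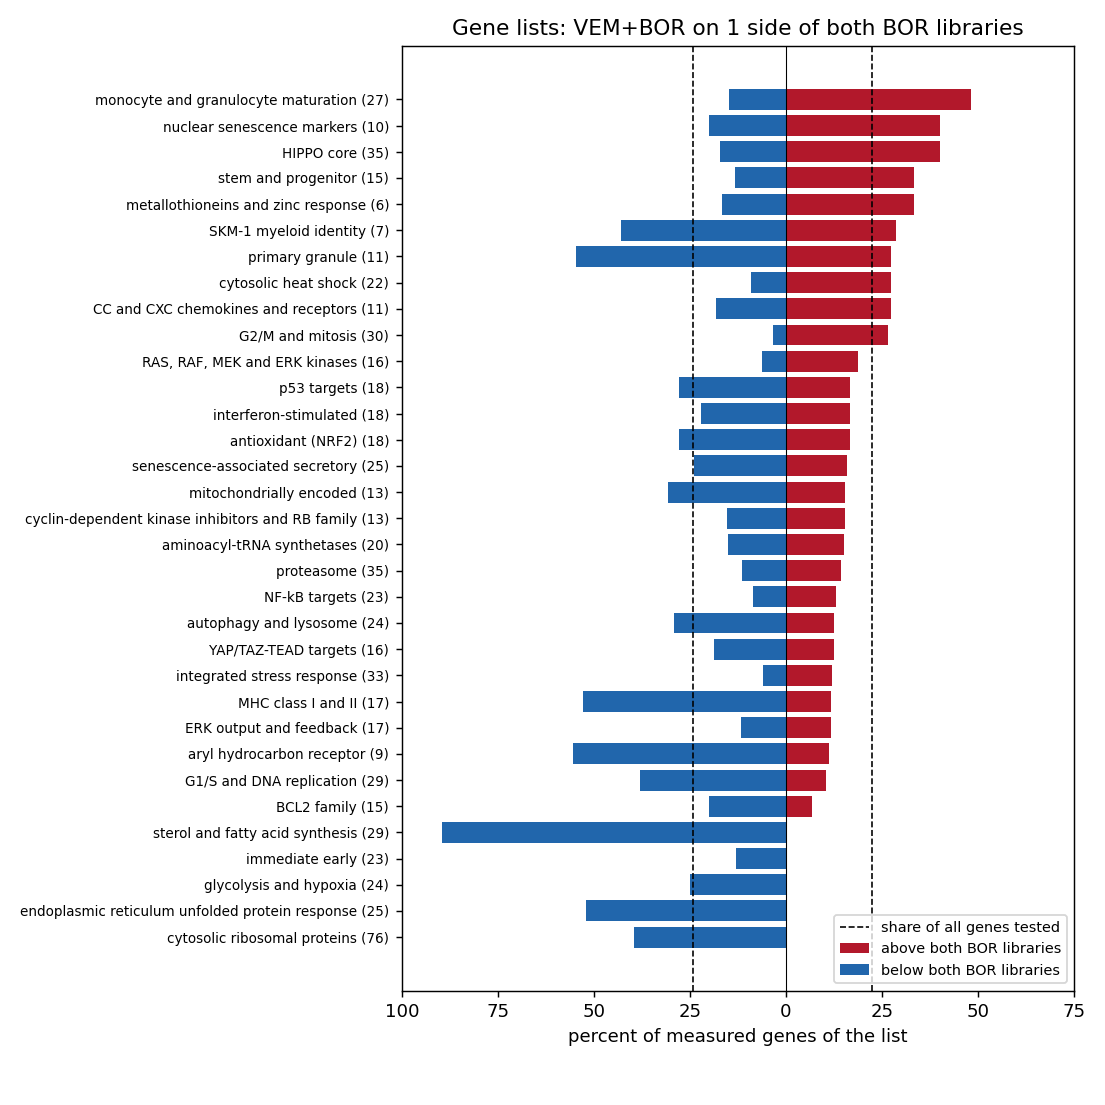
Bars give the percent of measured genes of each list (number in brackets) with VEM+BOR above both BOR libraries, to the right in red, or below both, to the left in blue. No list had a member past the test's threshold. Dashed lines mark the shares of all genes tested, 22.3% above and 24.3% below.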

How the data were processed

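RNA was measured in 6 SKM-1 libraries, grouped by the treatment labels, with replicate numbers in accession order. Each of the 3 tables the authors deposited holds 1 treated group beside both untreated libraries. The deposited values are a normalised signal, and their even steps within a column are those of read counts divided by a single factor per library. The submitters' processing notes list, without saying what each did, edgeR 3.22.5, DESeq2 1.20.0, HISAT2 2.0.5, CASAVA and featureCounts 1.5.0-p3. No genome build is named there, but 23514 of 23519 gene spans equal GENCODE 29 on GRCh38. No strand-marking step is named, so overlapping genes cannot be told apart. The authors also deposited log2 fold changes with p-values, which were not used.

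Columns were joined by gene ID, then rescaled together with median-of-ratios factors. The main test was limma 3.58.1 (R 4.3.3, mean-variance trend, log2(value + 1), two-sided, Benjamini-Hochberg) on the VEM+BOR, BOR and untreated libraries, for genes with a mean of at least 10. It was run on simulated data in which every library had the spread of the untreated pair. The BOR pair was wider (biological coefficient of variation 0.653 against 0.277), so that run does not measure how the test performs here. Of the values, 100% were whole reads within 0.001. edgeR 4.0.16 and DESeq2 1.42.0 ran on recovered reads of the VEM+BOR, BOR and untreated libraries, and reads of the VEM library entered no count test. Fewer reads give lower precision.

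Of the genes in the BOR table, 1553 are not in the VEM+BOR table, and 0 of these had at least 10 in both BOR libraries. Named genes were the 12 highest and 12 lowest nearer gaps among protein-coding genes with a mean of at least 5 CPM, up to 4 members of each described list (mean of at least 1 CPM, largest absolute nearer gap or fitted change), and a fixed set of 15. Some genes taken in by these rules are not reported here. The genes, the 36 lists and the rules were chosen with earlier results of these data known. Alternatives were other scalings, pseudocounts, filters, fits and left-out libraries.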

Additional observations from a re-analysis of the deposited data

How the results depend on the processing

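No paired analysis was possible because replicate numbers follow accession order and VEM+BOR has 1 library. The count of genes past the threshold for VEM+BOR against BOR was 0 under every alternative run except DESeq2 (3 genes) and the left-out libraries, where it ranged from 0 to 3591. The count for VEM with BOR against VEM without BOR was 0 in every alternative run apart from the left-out libraries, where it ranged from 0 to 2008. In each case the highest count came without BOR 1. Leaving out a BOR library, the count of genes above ranged from 7501 to 7557 and that below from 7879 to 7900, since 1 library then sets the side. By 1 or more, these ranged from 295 to 3909 above and from 422 to 2623 below. With no filter on low values 5645 genes lay above both, 689 of them by 1 or more, and 605 lay below both by 1 or more. With a mean of at least 50 the counts by 1 or more were 35 above and 46 below, and with a pseudocount of 5 the count below was 95. The number of lists with more members above than below was 12 of 36, became 22 when scaled by library totals, and ranged from 7 to 23 without a BOR library. For VEM lower than untreated among the 27 lower genes, an alternative chosen after seeing the data, the count ranged from 16 to 27 without 1 untreated library, while the 26 of 27 upper genes stayed at 26. Of the recomputed fitted changes of the 24 named genes, 339 stayed on their side of the threshold, 20 passed it and 0 changed sign. Of 1241 recomputed nearer gaps, over all genes the naming rules take in, 199 moved by more than the spread between the BOR libraries: 120 without BOR 1, 31 without BOR 2, 32 with library totals, 14 with TMM and 2 with a pseudocount of 5. Low genes are limited by depth: JPH2 rests on few reads in BOR 1.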
